A study of Mus musculus with 12 samples.

Results

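Neuropsin, the secreted serine protease encoded by Klk8, was examined together with 8 genes related to it by family, position or function, in ribosome-bound RNA of CA1 pyramidal neurons from wild-type mice and mice without Fmr1. The 9 genes, found by symbol among the 24079 genes of the count table, were the kallikreins Klk8, Klk6 and Klk7, the noncoding neighbour 2310002F09Rik, the other neuronal serine proteases Prss12 and Plat, and the substrates L1cam, Nrg1 and Ephb2. Klk8 was chosen by its measured level, which differed between the genotypes in these same libraries, and 2310002F09Rik by its place beside Klk8, so the differences of both genes are given as descriptions without a test. The other 7 genes were listed for what their proteins do and were tested. All 9 genes had at least 15 reads over the 12 libraries, the minimum used here for a gene to be tested.

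Neuropsin is released by neurons as an inactive precursor, is activated outside the cell in an activity-dependent way and cuts adhesion and signalling proteins at the synapse. In the hippocampus it is known as a protease of the early phase of long-term potentiation, and L1CAM, neuregulin-1 and EphB2 are among its known substrates. The kallikreins lie side by side in a gene cluster, and their secreted proteases can activate each other in the skin and the nervous system.

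The libraries hold RNA bound to ribosomes that carry an HA tag on Rpl22, pulled down from whole hippocampus. The 6 wild-type libraries (WT1 to WT6) came from Wfs1-CreERT2:RiboTag mice and the 6 knockout libraries (KO1 to KO6) from Wfs1-CreERT2:RiboTag:Frm1 knockout mice, as the labels spell the Fmr1 allele. Each library was made from pooled hippocampi of 4 to 6 male mice aged 2 to 6 months, so single animals cannot be told apart, and mice of both genotypes received tamoxifen (100 mg/kg on 3 days) and were killed 1 week later. In both genotypes the Wfs1 promoter drives the inducible Cre that switches on the tag, so the tagged cells are those in which this promoter was active.

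Between 39400980 and 65565479 reads per library were counted on genes, and 17823 genes were tested. Fmr1 had 1971 to 2608 reads in the wild-type libraries, 0 reads in 5 knockout libraries and 1 read in the other. Levels are CPM, counts scaled to a common library size, after edgeR's TMM scaling. The comparison of genotypes used the quasi-likelihood test of edgeR, with p adjusted over all genes by the Benjamini-Hochberg method. At an adjusted p under 0.05 this test called 4 of the 17823 genes (0.0224%), all lower in the knockout, while 7.96% had an unadjusted p under 0.05 and DESeq2 called 0.471%. The median log2 fold change over all genes tested was 0.0042, with 8670 genes lower and 9153 higher.

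The level of 8 markers of CA1 pyramidal cells, among them Wfs1 and Camk2a, was examined, and all 8 had at least 1350 reads in every library. Their summed level ran from 7735 to 9522 CPM in wild-type and from 7417 to 8855 CPM in knockout libraries. All 8 CA1 markers were lower on average in the knockout, with a mean difference of -0.17 on the log2 scale (exact permutation test over 924 regroupings, two-sided, p = 0.106, adjusted over 7 marker lists 0.247; -0.11 without KO4), and 0 of 8 passed the test across all genes. Markers of other cells were present in every library. No library of unselected hippocampus was available for comparison, so enrichment or depletion of a cell type could not be measured here. In the paper's qRT-PCR against such input, Wfs1 and Slc1a1 were enriched, and markers of GABAergic and glial cells were depleted. Summed oligodendrocyte markers reached 1167 to 1747 CPM in wild type and 1047 to 1583 CPM in the knockout, and astrocyte markers reached 1277 to 1669 CPM and 1445 to 2313 CPM. Endothelial markers were lower in level, at 45.5 to 63.9 CPM and 58.6 to 84.8 CPM. All 7 endothelial markers were higher on average in the knockout (mean log2 difference 0.35, exact permutation p = 0.0303, adjusted 0.212), as were all 7 astrocyte markers (0.22, exact permutation p = 0.0606, adjusted 0.212). Oligodendrocyte markers differed by -0.18 (adjusted 0.288), markers of CA2, CA3 and the dentate gyrus by -0.09 (0.361), GABAergic markers by -0.012 (0.931) and microglial markers by 0.011 (0.931). The adjusted values are for the same exact permutation test, and none of the 7 lists passed it.

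Klk8 lies on chromosome 7 (GRCm38.p6, the build of the files, 43797532 to 43803826, plus strand), where Klk7 (43811294 to 43816387) and Klk6 (43824438 to 43832027) follow it on the same strand. The RefSeq gene 2310002F09Rik is a long noncoding RNA on the minus strand (43745466 to 43755936) that ends 41.6 kb before Klk8, with Klk9 to Klk12 in between. In the GENCODE annotation, however, 2 of its 4 transcripts begin inside the first exon of Klk8 and run away from it on the opposite strand, and 382 bases (43797577 to 43797958) are exon in both genes. The sequences around the starts of Klk8 and Klk7 are shown because the first lies largely within an exon of this antisense transcript and the second does not. The transcript itself begins further inside Klk8, past the end of the window. Both are RefSeq windows of 250 bases before and 50 bases after a transcript start (43797577 for Klk8 and 43811294 for Klk7), read 5′ to 3′ on the plus strand. Capitals mark bases that lie in the first exon of 2310002F09Rik-201 on the opposite strand.
Klk8, chr7:43797327-43797626: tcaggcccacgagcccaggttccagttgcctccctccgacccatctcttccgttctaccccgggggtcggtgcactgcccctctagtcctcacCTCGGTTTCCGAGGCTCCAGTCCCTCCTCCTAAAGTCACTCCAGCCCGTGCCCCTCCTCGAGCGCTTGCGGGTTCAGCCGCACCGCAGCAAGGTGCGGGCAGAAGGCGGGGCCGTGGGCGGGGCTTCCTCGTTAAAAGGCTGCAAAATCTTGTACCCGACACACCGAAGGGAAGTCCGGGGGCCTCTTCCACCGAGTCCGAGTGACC
Klk7, chr7:43811044-43811343: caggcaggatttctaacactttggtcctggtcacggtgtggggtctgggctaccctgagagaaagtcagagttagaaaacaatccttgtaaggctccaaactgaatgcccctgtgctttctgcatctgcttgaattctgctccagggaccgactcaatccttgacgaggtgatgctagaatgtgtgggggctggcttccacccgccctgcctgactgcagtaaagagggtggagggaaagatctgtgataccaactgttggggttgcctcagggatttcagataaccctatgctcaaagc
In the Klk8 window 207 of 300 bases lay in that antisense exon, and in the Klk7 window 0. The Klk8 window had a GC content of 65.3%, above that of 82.3% of 32851 promoter windows of the same length, while the Klk7 window had 52.0%, near the median of 52.7%. Searched on both strands, the GC box GGGCGG was found once in the Klk8 window, once in the Klk7 window, and in 35.7% of all windows. In Klk8 it begins at 43797535, 42 bases before the transcript start that set the window. The RefSeq gene itself begins earlier, at 43797532. The TATA box TATAAA (13.6% of all windows) and the cyclic AMP response element TGACGTCA (1.79%) were not found in the Klk8 or Klk7 window.

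Klk8 was lower in the knockout, at about 55% of its wild-type level. Its level in WT1 to WT6 was 31.5, 18.4, 17.9, 21.97, 20.7 and 21.7 CPM. In KO1 to KO6 it was 11.9, 13.2, 14.3, 9.03, 11.1 and 12.8 CPM. Every knockout library was therefore below every wild-type library, as was so for 0.41% of all genes tested. The means were 22.02 ± 4.93 and 12.1 ± 1.85 CPM (SD, n = 6 each), and the fitted log2 fold change was -0.87 with a standard error of 0.14. These values rest on 433 to 1694 reads per library. WT1 stood apart from the other wild-type libraries, and without it the log2 fold change was -0.74.

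2310002F09Rik differed by a like amount at a lower level. It had 4.13, 3.43, 4.08, 3.597, 3.24 and 2.45 CPM in WT1 to WT6, and 2.14, 1.39, 2.80, 1.06, 2.0996 and 2.174 CPM in KO1 to KO6. Of the knockout libraries 5 were below all wild-type libraries, and KO3 lay between WT6 and the others. The means were 3.49 ± 0.619 and 1.94 ± 0.621 CPM (SD, n = 6 each), the knockout at 55.8% of wild type, with a log2 fold change of -0.84 and a standard error of 0.21, from 51 to 222 reads per library. The authors counted reads by strand, so reads of Klk8 and of a transcript antisense to it were kept apart as far as strand allows, but which exons the UCSC gene models used for counting gave to 2310002F09Rik is not given in the sources used here.

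Klk7, a protease known for shedding of the outer skin, had a lower mean in the knockout at a far lower level, a difference that did not pass the test. It had 1.67, 1.03, 0.614, 1.01, 0.912 and 0.749 CPM in WT1 to WT6 and 0.701, 0.317, 0.541, 0.396, 0.628 and 0.409 CPM in KO1 to KO6. All 6 knockout libraries were below the wild-type median and 4 were below the lowest wild-type library. The means were 0.998 ± 0.367 and 0.499 ± 0.149 CPM (SD, n = 6 each), from only 16 to 90 reads per library. The log2 fold change of -0.99 (standard error 0.31) had an unadjusted p of 0.0050 in edgeR's test and did not pass after adjustment (adjusted p = 0.371). Its 95% interval places the knockout between 31.1% and 80.9% of wild type.

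The mean proportions of the 3 genes were alike in both genotypes, which restates their like fold changes. Reads of 2310002F09Rik were 16.3 ± 4.07% of those of Klk8 in wild type and 15.9 ± 3.82% in the knockout (SD, n = 6 each), with ranges of 11.3 to 22.8% and 10.5 to 19.5%. Reads of Klk7 were 4.47 ± 0.908% and 4.22 ± 1.37% of those of Klk8, with ranges of 3.43 to 5.60% and 2.41 to 5.90%. Both shares overlapped between the genotypes and were not tested, since Klk8 chose the comparison.

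Klk6, a kallikrein known for its expression in oligodendrocytes, showed no such difference. Its levels were 0.0930 to 0.394 CPM in wild type (median 0.227) and 0.104 to 0.377 CPM in the knockout (median 0.257), with 4 to 22 reads per library. The log2 fold change was 0.084 with a standard error of 0.55 (edgeR, adjusted p = 0.989), and the 95% interval of 45.5% to 247% of wild type spans the size of the Klk8 difference, which was not detectable for Klk6 at this depth.

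**Figure D1:**
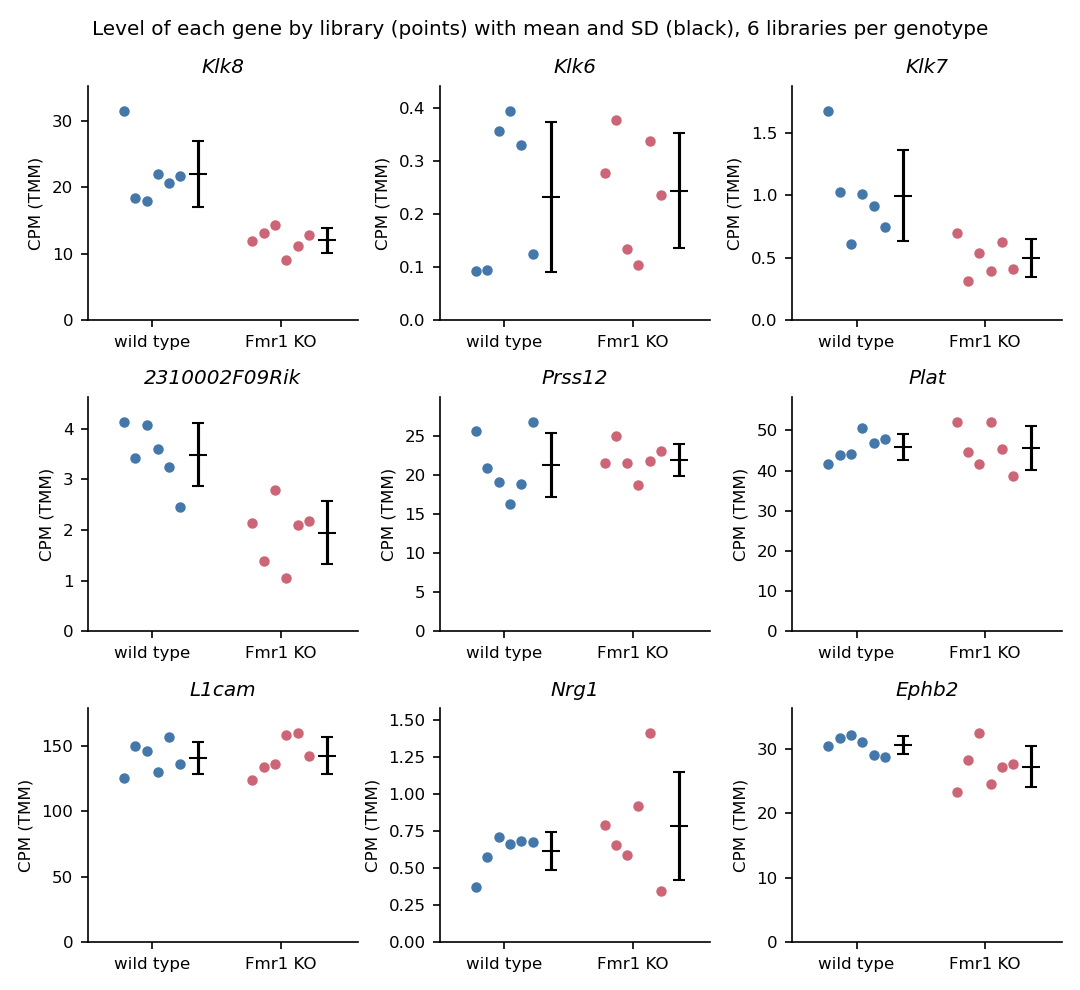
Level of each of the 9 genes in CPM (linear axes from 0, 1 panel a gene), with wild-type libraries 1 to 6 in blue and knockout libraries 1 to 6 in red from left to right and the mean ± SD in black. The 6 knockout values of Klk8 (9.03 to 14.3 CPM) sit below all wild-type values (17.9 to 31.5 CPM), and 2310002F09Rik overlaps in 1 knockout library. For the proteases Prss12 and Plat and the substrate L1cam the ranges of the genotypes overlap, with some knockout libraries of Plat and L1cam outside the wild-type range.

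The genes around Klk8 were examined next. Within 200 kb to either side, 26 genes are annotated and 22 are in the count table. Apart from Klk8 and 2310002F09Rik, 9 of these were tested, of which 7 were lower and 2 higher with a median log2 fold change of -0.10, and 0 passed edgeR's test (1 at an unadjusted p under 0.05, Klk7, and 0 of the 4 with an adjusted p in DESeq2). Only Ctu1, a tRNA-modifying enzyme 119 kb before Klk8, had a mean of at least 1 CPM there. Ctu1 had 12.4 ± 1.38 CPM in wild type and 12.1 ± 1.40 CPM in the knockout (SD, n = 6 each), and its 95% interval of 83.1% to 114% of wild type does not reach the Klk8 value of 54.8%. The nearest tested genes were Klk9, 774 bases before Klk8, and Klk7, 7468 bases after it. Klk9 had 33 reads in all and a mean of 0.048 and 0.067 CPM, too few to show a difference. Klk10, 12122 bases before Klk8, had 0.901 ± 0.205 and 0.640 ± 0.345 CPM (log2 fold change -0.50, standard error 0.33, edgeR adjusted p = 0.782). In a wider window of 1 Mb to either side, chosen after the data were seen, 23 other genes had a mean of at least 1 CPM, and the log2 fold change of these lay between -0.36 and 0.25 (median -0.06). Of these 23 genes, 15 were lower and 8 higher, 0 passed edgeR's test, and 3 had an unadjusted p under 0.05, namely Etfb (0.21), Zfp658 (-0.26) and Shank1 (-0.28). Over all 46 other genes tested in this window, at any level, the log2 fold change ran from -1.16 to 2.14.

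**Figure D2:**
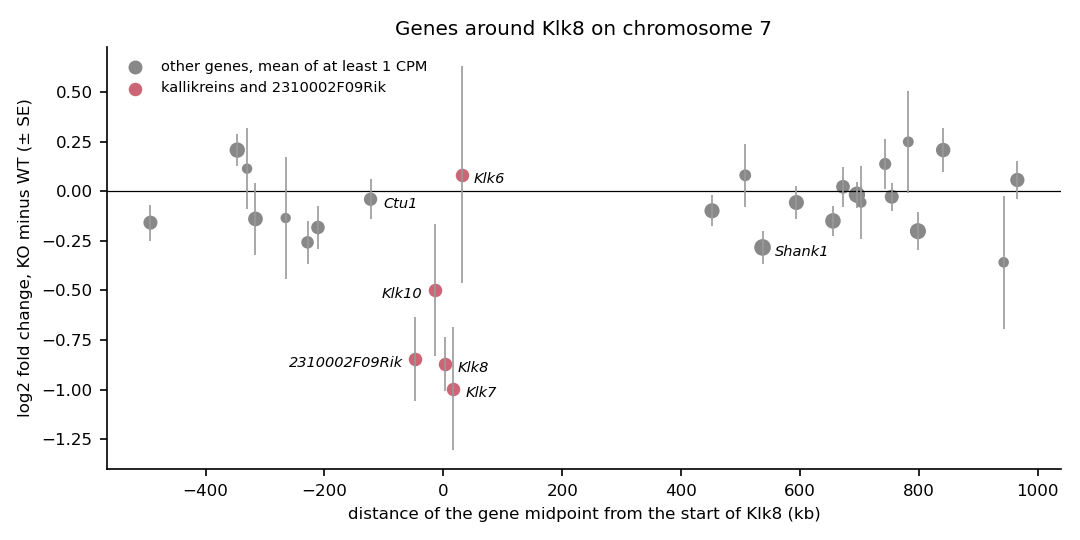
Log2 fold change (knockout minus wild type, ± SE) of genes within 1 Mb of Klk8, by the distance of the gene midpoint from the start of Klk8 in kb. Grey points are genes with a mean of at least 1 CPM, larger for higher levels, and red points are the kallikreins present in every library and 2310002F09Rik. Klk8, Klk7 and 2310002F09Rik lie between -0.99 and -0.84, Klk10 at -0.50, Klk6 at 0.084 and all grey points between -0.36 and 0.25. Klk6, Klk7 and Klk10 are drawn although their means are under 1 CPM, while other genes under 1 CPM are not. The 46 tested genes other than Klk8 and 2310002F09Rik, at any level, ran from -1.16 to 2.14.

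Klk8 was the main kallikrein of these libraries. The 26 kallikrein genes of the table had 10827 reads in all, of which Klk8 held 89.1% (89.9% in wild type and 87.8% in the knockout). Only Klk6, Klk7, Klk8 and Klk10 had reads in every library, and 19 kallikreins had fewer than 15 reads in all, 4 of them 0. The 13 genes of the rodent Klk1b group together had 67 reads, and since they are close copies of each other, their counts are uncertain. Of the 6 tested kallikreins other than Klk8, 4 were lower and 2 higher, with a median log2 fold change of -0.43 beside 0.0042 over all genes, and 0 passed edgeR's test (1 at an unadjusted p under 0.05, Klk7, and 0 of the 2 with an adjusted p in DESeq2). Of these 6 genes 0 had a mean of at least 1 CPM, and the lowest totals were 21, 33 and 34 reads over all libraries. Their median is therefore imprecise and does not show a shift of the family.

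Per length of exon, Klk8 was among the more abundant of the genes described. In wild type, the level in CPM per kb of annotated exon was 19.2 ± 1.67 for L1cam, 14.3 ± 3.20 for Klk8, 8.17 ± 1.58 for Prss12, 7.34 ± 0.522 for Plat and 2.42 ± 0.111 for Ephb2 (SD, n = 6). The lowest were Klk7 with 0.527 ± 0.194, Klk6 with 0.154 ± 0.0937 and Nrg1 with 0.0593 ± 0.0123 CPM per kb. L1cam and Klk8 overlapped between libraries, as did Prss12 and Plat, and Klk6 and Nrg1, so the order within these 3 pairs is not set. The overlap of L1cam (17.1 to 21.4) and Klk8 came from WT1 alone, which had 20.4 CPM per kb of Klk8 where the other wild-type libraries had 11.6 to 14.3. On this per-length scale Klk8 lay above 79.3% of all genes with a known length, L1cam above 84.3%, and Nrg1 above 8.38%. When each gene was divided by its longest transcript, Plat (11.3) stood above Prss12 (8.17), and L1cam (24.5 to 30.7 CPM per kb) no longer overlapped with Klk8 (13.6 to 23.8). By its longest transcript Nrg1 had 0.113 CPM per kb. The lengths are from GENCODE while the counts were made on UCSC gene models, so the levels per length are approximate for all genes. 2310002F09Rik was left out because its place differs between annotations and its counted exons are not known.

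The level of Klk8 within each genotype was set against the CA1 markers. After the genotype means were taken out, log2 Klk8 and the mean log2 level of the 8 CA1 markers had a Pearson r of 0.713 over 12 libraries (permutation test within genotype, p = 0.0162, adjusted over 3 relations 0.0485) and a Spearman rho of 0.727 (permutation p = 0.0152, adjusted 0.0455). Within wild type r was 0.635 and within the knockout 0.834. The relation rested on WT1 and KO4, the libraries with the most extreme marker level, since without them r was 0.073 over 10 libraries. With 1 library left out r was between 0.570 and 0.803, and the adjusted permutation p missed 0.05 in 9 of 12 such cases. The CA1 markers differed by -0.17 between the genotypes, and their part in the difference of Klk8 was not tested. Set against the markers within each library, log2 Klk8 was -3.86 ± 0.232 in wild type (-4.10 to -3.53) and -4.54 ± 0.130 in the knockout (-4.64 to -4.31; SD, n = 6 each), which did not overlap and differed by -0.69. As Klk8 was chosen for its difference between these libraries, this is a description and was not tested. In bulk libraries such as these, fewer cells of a type and less RNA per cell cannot be told apart.

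**Figure D3:**
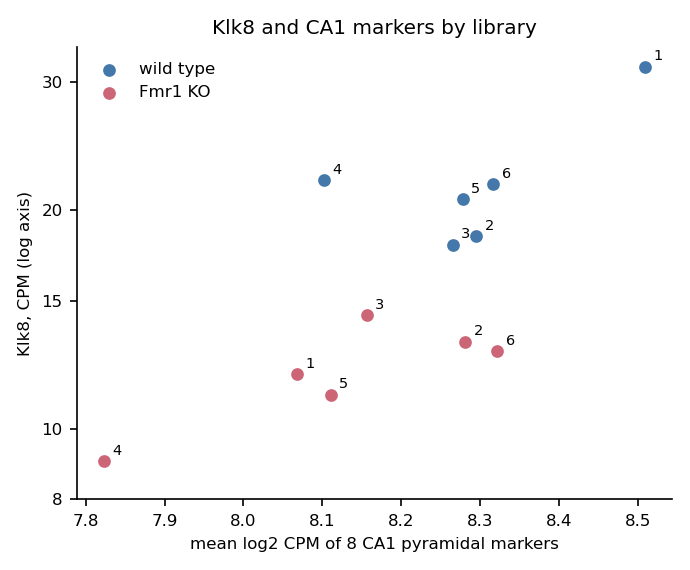
Klk8 in CPM (log axis) against the mean log2 CPM of 8 CA1 pyramidal markers, with 1 numbered point a library, wild type in blue and knockout in red. WT1 is highest and KO4 lowest on both axes. The knockout libraries (at most 14.3 CPM) lie below the wild-type libraries (at least 17.9 CPM), which is the difference by which Klk8 was chosen.

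The genes whose variation between libraries was most like that of Klk8 were Cotl1 (r = 0.940), Rwdd2b (0.927), Rasd1 (0.921), Dusp6 (0.920) and Arpc5 (0.911), out of 13767 genes with a mean of at least 1 CPM. These r are of deviations from the genotype means over 12 libraries that share depth and preparation, and are given as a description. WT1 (31.5 CPM) and KO4 (9.03 CPM) were the extremes for Klk8, and how far the r to Klk8 given here rest on these libraries was not tested. Cotl1 and Arpc5 encode proteins of the actin cytoskeleton, Dusp6 a phosphatase that acts on ERK, and Rasd1 a small G protein. Their log2 fold changes between genotypes were small beside that of Klk8, from -0.19 for Rasd1 to 0.21 for Rwdd2b. Measured the same way, r to Klk8 was 0.497 for Klk7, 0.467 for 2310002F09Rik, 0.553 for Prss12 and 0.323 for Ephb2, and it was negative for Klk6 (-0.13), Plat (-0.49), Nrg1 (-0.61) and L1cam (-0.69).

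For Klk6 the likest genes were Mad1l1 (r = 0.909), Gm11696 (0.821), Ly86 (0.816), 2610015P09Rik (0.814) and Prrg2 (0.808), given in the same way. Its relation to 10 oligodendrocyte markers had r = 0.540 (permutation p = 0.0962, adjusted 0.144) and rho = 0.594 (adjusted permutation p = 0.103), with r of 0.919 within wild type and -0.065 within the knockout, and without KO5 and WT4, the libraries farthest from the median, r was 0.589. Klk6 had only 4 to 22 reads per library, which limits the precision of these r.

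The other synaptic proteases did not differ detectably between the genotypes. Prss12, which encodes neurotrypsin, the protease that cuts agrin at synapses, had 16.3 to 26.8 CPM in wild type (median 19.995) and 18.7 to 24.95 CPM in the knockout (median 21.6). The ranges overlapped, with all knockout libraries inside the wild-type range. Its log2 fold change was 0.044 (standard error 0.11, edgeR adjusted p = 0.962), and the 95% interval places the knockout between 86.5% and 123% of wild type. Plat, which encodes tissue plasminogen activator, had 41.5 to 50.5 CPM in wild type (median 45.5) and 38.6 to 52.0 CPM in the knockout (median 45.0). The groups overlapped, with 1 knockout library below and 2 above the wild-type range. The log2 fold change of Plat was -0.0023 (standard error 0.081, edgeR adjusted p = 0.999), and it turned positive, at 0.024, without TMM scaling. Its 95% interval, 88.1% to 113% of wild type, does not reach the Klk8 value. Plat is made by endothelial cells as well as neurons, and the endothelial markers were higher in the knockout by the value given above. Within genotypes, r between Plat and these markers was 0.232 over 12 libraries (permutation p = 0.510, adjusted 0.510; rho 0.154, permutation p = 0.666), 0.119 within wild type and 0.280 within the knockout, and 0.039 without KO1 and KO5.

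Of the substrates, L1cam, the cell adhesion molecule that neuropsin cuts at synapses, was the most abundant member, with 126 to 157 CPM in wild type (median 141) and 124 to 160 CPM in the knockout (median 139). The groups overlapped, the log2 fold change was 0.017 (standard error 0.074, edgeR adjusted p = 0.983), and the 95% interval was 90.2% to 113% of wild type. Nrg1, whose product is a ligand of ErbB4 on interneurons, had 0.372 to 0.713 CPM in wild type (median 0.670) and 0.344 to 1.41 CPM in the knockout (median 0.724). Of the knockout libraries 3 were above all wild-type libraries, KO5 the highest of them with 92 reads, and 1 was below all of them. The log2 fold change of Nrg1 was 0.36 with a standard error of 0.33 (edgeR, adjusted p = 0.856), and the interval of 77.4% to 214% of wild type leaves a wide range of sizes. Without KO5 the log2 fold change was 0.11 (edgeR adjusted p = 0.996).

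Ephb2, the receptor tyrosine kinase that binds ephrin-B ligands and NMDA receptors, had 28.8 to 32.2 CPM in wild type (median 30.8) and 23.4 to 32.5 CPM in the knockout (median 27.4). Of the knockout libraries 5 were below all wild-type libraries, while KO3, at 32.5 CPM, was above all of them. The means were 30.6 ± 1.40 and 27.2 ± 3.18 CPM (SD, n = 6 each). The log2 fold change of -0.17 (standard error 0.080) had an unadjusted p of 0.0529 in edgeR's test and did not pass (adjusted p = 0.634), with an interval of 78.8% to 101% of wild type. In all, 0 of the 7 tested members passed edgeR's test and 1, Klk7, had an unadjusted p under 0.05. DESeq2 called 0 of the 6 members to which it gave an adjusted p (none for Klk6) and limma's voom 0 of 7, with 2 (Klk7 and Ephb2) at an unadjusted p under 0.05 in each.

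**Figure D4:**
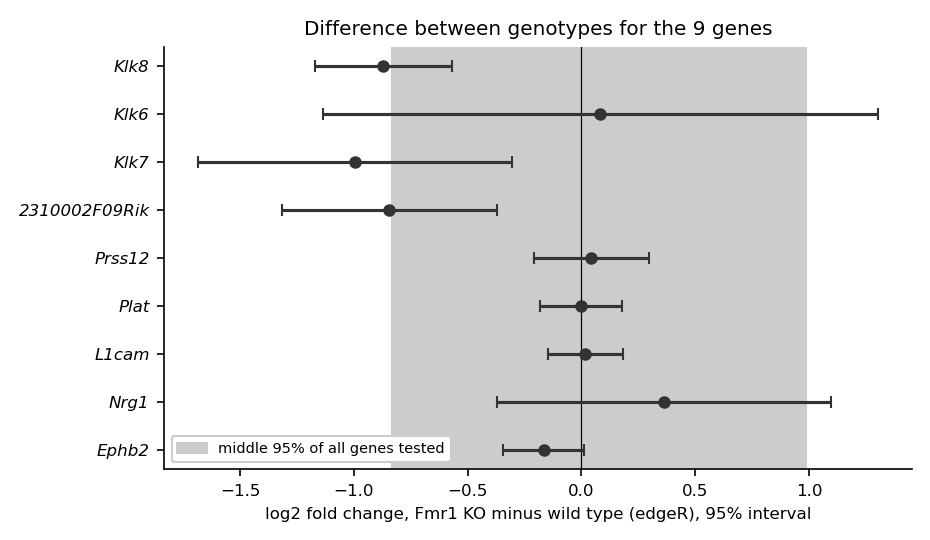
Log2 fold change (knockout minus wild type) of the 9 genes with its 95% interval from edgeR's fit over 6 and 6 libraries, and in grey the range that holds the middle 95% of the fold changes of all genes tested. Klk8, Klk7 and 2310002F09Rik lie between -0.99 and -0.84, the narrow intervals of Prss12, Plat and L1cam span 0, and those of Klk6 and Nrg1 are wide.

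The further genes of each pathway were taken from lists and are given by role. Over all genes tested, 8670 were lower and 9153 higher. EdgeR's test called 0.0224% of them (7.96% at an unadjusted p under 0.05) and DESeq2 called 0.471%. Of 18 tested extracellular serine proteases outside the kallikreins, Prss12 and Plat included, 9 were lower and 9 higher with a median log2 fold change of 0.02, and 0 passed edgeR's test (3 at an unadjusted p under 0.05). DESeq2 gave 13 of them an adjusted p and called 2, both lower. Masp1, a protease of the lectin pathway of complement, had 5.91 ± 0.912 CPM in wild type and 3.54 ± 0.946 CPM in the knockout (log2 fold change -0.74, edgeR adjusted p = 0.199, DESeq2 adjusted p = 0.0101). The paper lists Masp1 among its differentially regulated genes from these same libraries, so this call was known beforehand. Tmprss6, a membrane protease known for its control of hepcidin, had 3.09 ± 1.10 and 1.36 ± 0.706 CPM (log2 fold change -1.18, edgeR adjusted p = 0.301, DESeq2 adjusted p = 0.0468). The most abundant were Htra1, a secreted protease, with 124 ± 15.3 and 149 ± 26.3 CPM (0.27, edgeR adjusted p = 0.503), and Furin, which activates proproteins, with 52.4 ± 2.86 and 50.02 ± 6.03 CPM (-0.07, adjusted p = 0.909).

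Of 17 tested serine protease inhibitors 5 were lower and 12 higher, with a median of 0.22, and 1 passed edgeR's test (5 at an unadjusted p under 0.05). The gene that passed was Serpina3n, a secreted serpin. It measured 56.0 ± 7.76 CPM in the wild-type and 30.02 ± 5.49 CPM in the knockout libraries (log2 fold change -0.90, standard error 0.12, edgeR adjusted p = 0.0041). All 6 knockout libraries were below all wild-type libraries for Serpina3n (22.8 to 38.8 against 46.7 to 70.3 CPM). The paper reports Serpina3n as lower from these same libraries, and the list was chosen with earlier results known. The edgeR p of Serpina3n given here is therefore no independent support. Serpini1, which encodes neuroserpin, the neuronal inhibitor of tissue plasminogen activator, had 252 ± 20.9 and 246 ± 18.7 CPM (-0.04, edgeR adjusted p = 0.944). Serpine2, an inhibitor of thrombin and plasminogen activators, had 108 ± 12.6 and 126 ± 27.5 CPM (0.22, adjusted p = 0.687), and Serpind1 had the largest higher value of the list among genes of at least 1 CPM, at 0.52 (adjusted p = 0.768). Astrocyte and endothelial markers were higher in the knockout by the values given above, and their part in the balance of this list was not tested. Spink8 is both in this list and among the CA1 markers.

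Of 10 protease receptors 4 were lower and 6 higher (median 0.05), and 0 passed edgeR's test, with 0 at an unadjusted p under 0.05 and 0 of the 7 with an adjusted p in DESeq2. Lrp1, which clears complexes of proteases and serpins, had 290 ± 20.8 and 269 ± 5.78 CPM (-0.11, edgeR adjusted p = 0.646), and the reelin receptor Lrp8 had 107 ± 14.7 and 94.3 ± 14.9 CPM (-0.18, adjusted p = 0.733). The thrombin receptor F2r and thrombomodulin, Thbd, had log2 fold changes of 0.19 and 0.27 (adjusted p = 0.883 and 0.798).

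Around Nrg1, 13 neuregulins, ErbB receptors and shedding proteases were tested, of which 5 were lower and 8 higher (median 0.01), and 0 passed edgeR's test (3 at an unadjusted p under 0.05, 0 of the 12 with an adjusted p in DESeq2). Erbb3, a neuregulin receptor of glia, had 1.52 ± 0.304 and 0.929 ± 0.323 CPM (-0.72, edgeR adjusted p = 0.469), and Erbb2, its signalling partner, had 2.60 ± 0.621 and 3.49 ± 0.809 CPM (0.42, adjusted p = 0.595). Oligodendrocyte markers differed by -0.18 (log2), and their part in the value of Erbb3 was not tested. The sheddases Bace1 and Adam10 had log2 fold changes of -0.08 and -0.07 (adjusted p = 0.917 and 0.848).

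Of 9 genes of the EphB group 8 were lower and 1 higher, with a median of -0.11, and 0 passed edgeR's test (2 at an unadjusted p under 0.05). DESeq2 gave all 9 an adjusted p and called 0. The CA1 markers differed by -0.17 on the log2 scale, and their part in this count was not tested. The values were small, from -0.18 for Ephb6, a receptor without kinase activity (68.3 ± 6.19 and 60.4 ± 4.69 CPM, edgeR adjusted p = 0.548), to 0.29 for Ephb4 (adjusted p = 0.706). The ligand Efnb3 had 229 ± 10.4 and 212 ± 17.8 CPM (-0.11, adjusted p = 0.702). Fkbp5, a chaperone of the glucocorticoid receptor that has been linked to EphB2 cleavage, had 86.7 ± 5.71 and 82.6 ± 7.997 CPM (-0.07, adjusted p = 0.885).

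Of 14 genes of the L1 family and matrix substrates 7 were lower and 7 higher (median 0.0016), and 0 passed edgeR's test (2 at an unadjusted p under 0.05). DESeq2 gave all 14 an adjusted p and called 0. Cntn1 and Ncam1, the adhesion molecules with the highest levels, had log2 fold changes of -0.0065 and 0.0098 (edgeR adjusted p = 0.991 and 0.988). Vitronectin, Vtn, had 87.3 ± 19.3 and 113 ± 27.9 CPM (0.38, adjusted p = 0.539), and the laminin gene Lama1 had 2.81 ± 0.545 and 3.79 ± 0.757 CPM (0.44, adjusted p = 0.499).

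**Figure D5:**
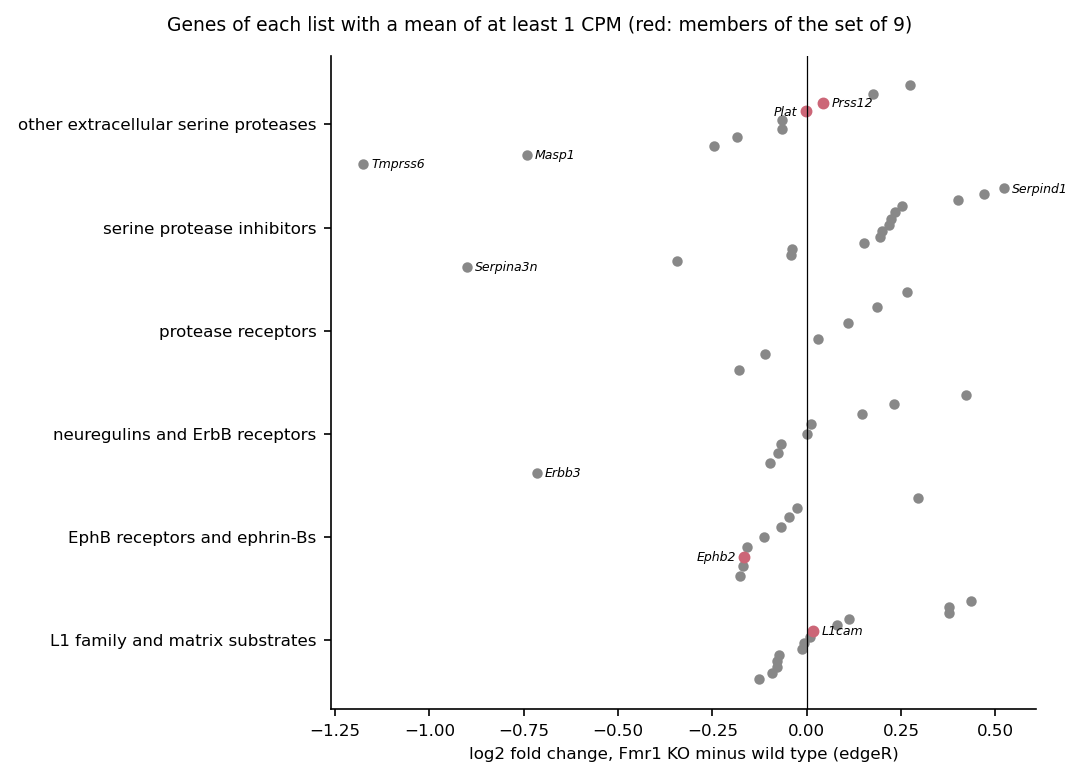
Log2 fold change (knockout minus wild type, edgeR) of the genes of 6 lists that had a mean of at least 1 CPM, with 1 point a gene, ordered by value within a list, and members of the set of 9 in red. Most points lie within 0.5 of 0, the lower values past that are Tmprss6, Serpina3n, Masp1 and Erbb3, and of these only Serpina3n passed the test.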

How the data were processed

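The authors demultiplexed the reads of stranded poly(A) libraries with bcl2fastq 2.17, aligned them to mm10 and UCSC gene models with TopHat2 2.1.1 and Bowtie2 2.2.8, and deposited raw read counts per gene made with HTSeq 0.6.1p1 in union mode on the opposite strand. The counts were not normalized, and the 12 columns were assigned to genotypes by the labels. Here, genes with at least 15 reads in total were tested with edgeR 4.0.16 (TMM, quasi-likelihood, no covariate; R 4.3.3), in place of the authors' DESeq2, with a threshold of 0.05. The standard error is the log2 fold change divided by the square root of F, and 95% intervals use the t distribution. DESeq2 1.42.0, limma 3.58.1 voom, other scalings and filters, the replicate block and each library left out were alternatives. The scripts were tested on simulated data. Marker scores and likeness used log2 CPM with a prior count of 2.

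The members and lists were chosen with earlier results of these data known. The named genes are the 9 members, and of each list the genes past the threshold, the 2 with the highest mean and the 2 with the largest fold change among those of at least 1 CPM, the nearest tested gene on each side of Klk8 and the 5 likest to Klk8 and to Klk6. Klk10, Ctu1, Etfb, Zfp658 and Shank1 were also named after their values were seen, as the genes that a count refers to. Klk8 and 2310002F09Rik were left out of the counts over lists and windows. Coordinates and promoters are from RefSeq, transcripts from GENCODE, on the same build. Promoter windows matched 7 of the 9 genes by Entrez gene number (not Plat and Nrg1).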

Additional observations from a re-analysis of the deposited data

Results flagged for a closer look

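In 32 groups of 6 libraries, the highest or lowest library was compared with its nearest neighbour, a check that marks about 1.6 such groups by chance. It marked 1, the wild-type level of Klk8. WT1 had 31.5 CPM where the other wild-type libraries had 17.9 to 21.97 CPM, and its gap to the nearest of them took 0.701 of the range, over the 95% critical value for 6 libraries. WT1 was also highest for Klk7 (1.67 CPM) and 2310002F09Rik (4.13 CPM) and in the score of the CA1 markers.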

How the results depend on the processing

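The log2 fold change of Klk8 ran from -0.93 to -0.74 over all 19 alternatives, and that of 2310002F09Rik from -0.97 to -0.72. Adjusted p ran from 0.140 to 0.690 for Klk7 and from 0.319 to 0.903 for Ephb2, and 0 of the 7 tested members passed in any alternative (Klk6 had no adjusted p in DESeq2). DESeq2 called 84 genes and 2 of the other serine proteases, and with each library left out edgeR called 2 to 6 genes (2 when KO1, KO4, KO5, KO6, WT4, WT5 or WT6 was the library left out). The cause of the gap between the tests was not tested. Values near 0 changed sign. Plat was 0.024 without scaling, and with libraries left out it ran from -0.043 to 0.042, Klk6 from -0.084 to 0.29, L1cam from -0.019 to 0.054, Prss12 from -0.021 to 0.12, the GABAergic score from -0.096 to 0.064 and the microglial score from -0.038 to 0.059. Nrg1 ran from 0.11 (without KO5) to 0.52, the CA1 score from -0.21 to -0.11 (without KO4), the oligodendrocyte score from -0.24 to -0.11 (without WT4) and the astrocyte score from 0.15 (without KO1) to 0.26. The relation of Klk8 to CA1 markers had r = 0.073 without the 2 libraries farthest from the median marker level and 0.570 to 0.803 with each library left out, and its adjusted p passed 0.05 in 4 of 14 alternatives. That of Klk6 to oligodendrocyte markers ran from 0.411 to 0.780, and passed only without KO3 (r = 0.780, permutation test, adjusted p = 0.0322).

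The genotypes share replicate numbers. Same-numbered libraries had correlations of deviations from the group means between -0.081 and 0.090 over all genes. Over the 5987 genes with a mean log2 CPM over 5 they ran from -0.44 to 0.60, with 3 of 6 pairs over 0.1, and 1 of 6 knockout libraries correlated best with its own number. As not every pair exceeded 0.1, the numbers were not taken to pair the pools. In a fit with the replicate block, 4 genes were called, Klk8 had -0.86, Klk7 -0.98 (edgeR adjusted p = 0.376), and no list's count changed.

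Klk6, Klk7 and Nrg1 had at most 92 reads per library, which limits what is detectable there. Intervals cover the spread between pools, not between single mice.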
